A study of Mus musculus with 8 samples.

Results

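Plasma cell genes were examined in RNA-seq counts of myeloid cells from lupus-prone mice. The 10 genes were Jchain, Mzb1, Sdc1, Tnfrsf17, Prdm1, Irf4, Xbp1, Pou2af1, Derl3 and Txndc5, found by symbol in a table of 54188 genes. They were taken by name, and no measured value enters that rule. All 10 were in the table, and 9 of them were among the 17650 genes with enough counts to be tested. Tnfrsf17 was not. The cells were CD11b+Gr-1+ cells, sorted by flow cytometry from the spleen and the bone marrow (BM) of mice aged 20 weeks. All mice are described as female sanroque mice (Roquin san/san) on C57BL/6, a strain that develops lupus-like disease with follicular helper T cells and autoantibodies. No wild-type or treated group was part of the table. Each of the 4 groups had 2 libraries, which are named here by the numbers of their labels. Spleen Gr-1hi cells (San_hi) gave libraries 5 and 6, and spleen Gr-1lo cells (San_low) gave libraries 7 and 8. BM Gr-1hi cells (BM_hi) gave libraries 9 and 10, and BM Gr-1lo cells (BM_low) gave libraries 11 and 12. The labels call Gr-1hi cells G-MDSC and Gr-1lo cells M-MDSC, that is, granulocytic and monocytic myeloid-derived suppressor cells. None of the groups was sorted as plasma cells or B cells. The 2 libraries of a group are described as independent biological replicates, and neither shared mice between libraries nor pooling of mice is stated in the labels. The study calls the BM cells autologous, so some spleen and BM libraries may come from the same mice, but which ones is not given.

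Plasma cells are the antibody-secreting end stage of the B cell lineage. IRF4 and BLIMP1 (the product of Prdm1) shut down the B cell programme, XBP1 enlarges the endoplasmic reticulum (ER) and its folding machinery, and the cell then secretes large amounts of immunoglobulin. Plasma cells live in niches of the BM and, in autoimmune mice, of the spleen, where they receive survival signals such as BAFF and APRIL through receptors that include BCMA (the product of Tnfrsf17). Several of these genes are not limited to plasma cells. XBP1, IRF4, BLIMP1 and TXNDC5 are also found in other cells, myeloid cells among them.

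The libraries held 33453580 to 68316154 reads counted on genes. Levels are given as CPM, the counts scaled by TMM to a common library size. Where no read was found, as many as 3 could have been missed, which is 0.0348 to 0.124 CPM depending on the library. These limits cover counting error only, since reads were not marked with molecular identifiers. Comparisons used the quasi-likelihood test of edgeR on all 8 libraries. A gene was called at a Benjamini-Hochberg adjusted p of at most 0.05 and a fold change (FC) of at least 2. The sex in the labels went against the data in most libraries. Xist, the RNA of the inactive X chromosome, was at 363 CPM in library 5, at 209 CPM in library 7 and at no more than 0.104 CPM in the others. Ddx3y, a gene of the Y chromosome, was at 0 in library 5, at 33.7 CPM in library 7 and at 52.5 to 82.6 CPM in the others. Libraries 6 and 8 to 12 therefore go against the label female, and library 7 holds RNA of both kinds. Library 5 differed in both genes from every BM library, so by these genes it shares no mouse with them. Counts of called genes are given below with and without libraries 5 and 7. Ly6g, which encodes a surface protein that Gr-1 antibodies bind, was at 330 to 801 CPM in the Gr-1hi libraries and at 3.07 to 8.23 CPM in the Gr-1lo libraries. Itgam, which encodes CD11b, was at 734 to 4904 CPM in the 8 libraries. In bulk RNA, fewer cells of a type and less RNA per cell cannot be told apart.

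Jchain and Mzb1 act in the assembly of antibodies, and both were far higher in spleen than in BM libraries. Jchain (ENSMUSG00000067149, chromosome 5 of GRCm38 from 88519809 to 88527891) encodes the joining chain that links IgM and IgA into polymers. It was at 101 and 52.2 CPM in the spleen Gr-1hi libraries, 29.1 and 41.0 CPM in spleen Gr-1lo, 8.00 and 6.36 CPM in BM Gr-1hi, and 2.95 and 5.65 CPM in BM Gr-1lo. Every spleen library was above every BM library. The spread within spleen Gr-1hi was wide, with a mean of 76.8 ± 34.8 CPM (SD, n = 2) set by library 5. Mzb1 (ENSMUSG00000024353, chromosome 18 from 35647267 to 35649367) encodes an ER protein that helps immunoglobulin heavy and light chains assemble. It was at 17.5 and 11.6 CPM in spleen Gr-1hi, 4.16 and 4.96 CPM in spleen Gr-1lo, 0.411 and 0.413 CPM in BM Gr-1hi, and 0.205 and 0.416 CPM in BM Gr-1lo. The BM libraries held 10 to 22 counts of it, the spleen libraries 197 to 579. In the annotation Mzb1 overlaps a neighbour on the same strand, Spata24, so reads from the shared stretch cannot be assigned to either gene.

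Sdc1 and Tnfrsf17, which encode surface proteins of plasma cells, had low RNA levels. Sdc1 (ENSMUSG00000020592, chromosome 12 from 8771323 to 8793715) encodes CD138, the marker by which plasma cells are usually sorted. It was at 2.32 and 1.66 CPM in spleen Gr-1hi, 1.27 and 1.43 CPM in spleen Gr-1lo, 0.150 and 0.248 CPM in BM Gr-1hi, and 0.328 and 0.435 CPM in BM Gr-1lo. The spleen libraries were again all above the BM libraries, where 4 to 23 counts of Sdc1 were found. Tnfrsf17 (ENSMUSG00000022496, chromosome 16 from 11313812 to 11320074) encodes BCMA, a receptor for APRIL and BAFF. Its counts were 3 and 0 in spleen Gr-1hi, 7 and 16 in spleen Gr-1lo, 0 and 0 in BM Gr-1hi, and 0 and 2 in BM Gr-1lo. Most of the reads were thus in the 2 spleen Gr-1lo libraries, with 0.148 and 0.185 CPM. Over the groups, 23 counts in spleen Gr-1lo against 2 in BM Gr-1lo gave a ratio of 8.75 after scaling, with an exact 95% counting interval from 2.16 to 76.6. Without a filter on low counts its adjusted p for that comparison was 0.140 by the quasi-likelihood test, so the ratio exceeds counting error but was not called. No ratio is given for the Gr-1hi libraries, where both groups were at or under 3 counts.

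Of the 4 transcriptional regulators, Pou2af1 followed Jchain and the other 3 did not. Pou2af1 (ENSMUSG00000032053, chromosome 9 from 51213708 to 51240080) encodes the coactivator that B lineage cells use together with octamer-binding factors at immunoglobulin promoters. It was at 51.1 and 28.4 CPM in spleen Gr-1hi, 7.75 and 8.76 CPM in spleen Gr-1lo, 2.5 and 2.27 CPM in BM Gr-1hi, and 0.594 and 1.13 CPM in BM Gr-1lo. The groups did not overlap, and both Gr-1hi groups were above the Gr-1lo group of the same tissue. Prdm1 (ENSMUSG00000038151, chromosome 10 from 44437177 to 44528501) encodes the repressor BLIMP1. It was at 8.32 and 7.91 CPM in spleen Gr-1hi, 8.91 and 14.5 CPM in spleen Gr-1lo, 1.01 and 1.40 CPM in BM Gr-1hi, and 4.96 and 5.01 CPM in BM Gr-1lo. BM Gr-1hi was the low group, and the highest library was spleen Gr-1lo library 8. Irf4 (ENSMUSG00000021356, chromosome 13 from 30749226 to 30766976) encodes a factor that plasma cells, some dendritic cells and macrophages need. It was at 12.0 and 8.42 CPM in spleen Gr-1hi, 11.0 and 10.6 CPM in spleen Gr-1lo, 1.38 and 1.11 CPM in BM Gr-1hi, and 6.41 and 3.72 CPM in BM Gr-1lo. The spleen groups overlapped each other, while BM Gr-1hi was below BM Gr-1lo. Xbp1 (ENSMUSG00000020484, chromosome 11 from 5520659 to 5525893) encodes the factor that turns on ER folding and secretion genes. It was at 247 and 204 CPM in spleen Gr-1hi, 275 and 246 CPM in spleen Gr-1lo, 91.3 and 91.5 CPM in BM Gr-1hi, and 241 and 215 CPM in BM Gr-1lo. The 2 BM Gr-1hi libraries stood below the other 6, which lay within 204 to 275 CPM. The counts do not separate the spliced from the unspliced form of Xbp1 mRNA, only the former of which gives the active factor.

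The 2 genes of the ER had different patterns. Derl3 (ENSMUSG00000009092, chromosome 10 from 75893413 to 75895941) encodes a derlin that serves the removal of misfolded proteins from the ER. It was at 3.35 and 2.30 CPM in spleen Gr-1hi, 1.58 and 1.95 CPM in spleen Gr-1lo, 0.0748 and 0.124 CPM in BM Gr-1hi, and 0.287 and 0.491 CPM in BM Gr-1lo. BM Gr-1hi held 2 and 3 counts of Derl3, at or under the limit of 3 counts, so the fitted FC of that group depends on few reads. Txndc5 (ENSMUSG00000038991, chromosome 13 from 38500079 to 38528824) encodes a protein disulfide isomerase. It was at 34.9 and 24.9 CPM in spleen Gr-1hi, 142 and 172 CPM in spleen Gr-1lo, 2.39 and 5.53 CPM in BM Gr-1hi, and 185 and 220 CPM in BM Gr-1lo. Txndc5 thus had its highest libraries in BM Gr-1lo, where Jchain, Mzb1 and Pou2af1 were near their lowest.

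**Figure D1:**
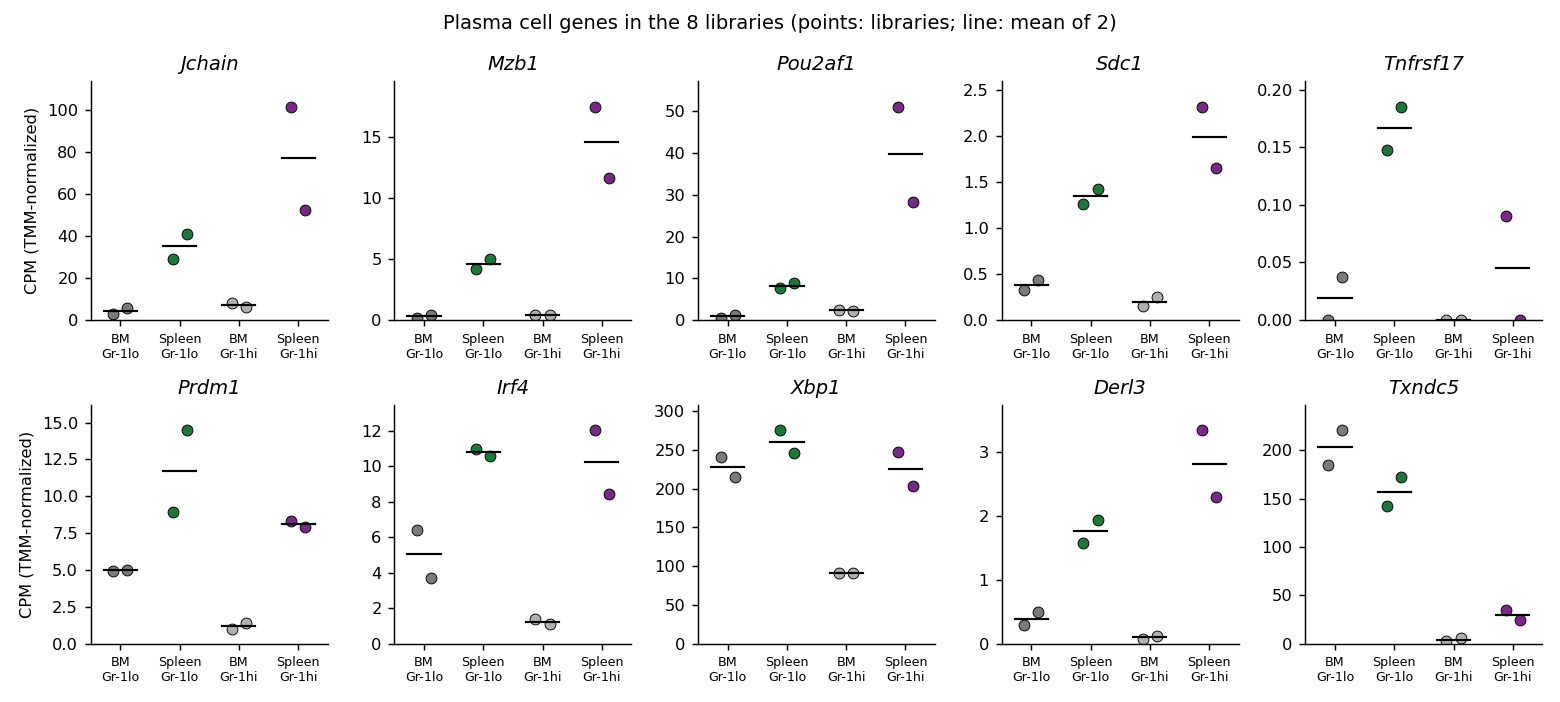
Level of each of the 10 plasma cell genes in CPM (vertical axis, linear, from 0) in the 4 groups (horizontal axis), with 1 point per library and a line at the mean of the 2 libraries. Jchain, Mzb1, Pou2af1, Sdc1 and Derl3 are higher in the spleen than in the BM groups. Txndc5 lies at 142 to 220 CPM in the Gr-1lo groups and at 2.39 to 34.9 CPM in the Gr-1hi groups.

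Per length the order of the genes depended on the group. Divided by exon length in kb (GENCODE M21), Xbp1 was the highest of the 10 in each group, at 28.1 ± 0.0419 to 80.2 ± 6.40 CPM per kb (SD, n = 2). In spleen Gr-1hi, Jchain came next at 30.5 ± 13.8 CPM per kb, then Pou2af1 at 15.6 ± 6.31 and Mzb1 at 12.0 ± 3.40 CPM per kb. Within each of the 2 libraries Jchain was above Pou2af1 and Pou2af1 above Mzb1, while the ranges of Pou2af1 (11.1 to 20.1) and Mzb1 (9.56 to 14.4) overlapped. In BM Gr-1lo, Txndc5 came next to Xbp1 at 45.1 ± 5.57 CPM per kb, and Jchain was at 1.71 ± 0.758 CPM per kb. Sdc1 and Tnfrsf17 were the 2 lowest genes in the spleen groups, with Sdc1 at 0.522 ± 0.123 CPM per kb in Gr-1hi and 0.353 ± 0.0295 CPM per kb in Gr-1lo.

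The promoters of these genes were searched for the motifs of 2 of the regulators, since XBP1 binds ER stress elements and the product of Pou2af1 acts with octamer factors. RefSeq windows from 250 bases before to 50 bases after the start (GRCm38.p6) were at hand for 9 of the 10 genes, with 3 windows for Txndc5. The motifs were the octamer ATGCAAAT, the core of the unfolded protein response element TGACGTGG, the ER stress response element (CCAAT and CCACG with 9 bases between them) and CCACG alone, on both strands. CCACG lies within the ER stress response element and overlaps the end of TGACGTGG read on the other strand. The ER stress response element was found in Derl3, on the minus strand, and in 0.137% of the 27025 genes with a window. TGACGTGG was found in Pou2af1 and in window 3 of Txndc5, and in 0.714% of genes. CCACG alone was found in 6 genes (Sdc1, Prdm1, Derl3, Irf4, Pou2af1 and Txndc5) and in 35.5% of genes. The octamer was found in none of the 11 windows and in 1.97% of genes. The 3 windows with the rarer matches are shown, since Derl3 and Pou2af1 were called higher in spleen in both Gr-1 subsets and Txndc5 in Gr-1hi cells alone, with capitals for the matched bases, 5′ to 3′ on the strand of the gene.
Derl3, chr10:75893148-75893447, plus strand: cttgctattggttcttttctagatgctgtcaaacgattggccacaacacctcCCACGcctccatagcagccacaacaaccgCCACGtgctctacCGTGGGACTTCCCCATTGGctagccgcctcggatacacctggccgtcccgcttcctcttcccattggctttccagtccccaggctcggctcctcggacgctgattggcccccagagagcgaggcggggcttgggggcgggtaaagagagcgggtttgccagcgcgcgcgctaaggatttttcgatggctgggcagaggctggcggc
Pou2af1, chr9:51213440-51213739, plus strand: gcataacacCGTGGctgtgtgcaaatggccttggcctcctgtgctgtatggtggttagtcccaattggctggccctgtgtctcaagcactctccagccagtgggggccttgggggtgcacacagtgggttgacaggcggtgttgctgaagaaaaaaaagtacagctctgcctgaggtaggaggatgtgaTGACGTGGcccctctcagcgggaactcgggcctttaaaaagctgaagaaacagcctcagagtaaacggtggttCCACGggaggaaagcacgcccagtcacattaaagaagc
Txndc5, window 3, chr13:38527865-38528164, minus strand: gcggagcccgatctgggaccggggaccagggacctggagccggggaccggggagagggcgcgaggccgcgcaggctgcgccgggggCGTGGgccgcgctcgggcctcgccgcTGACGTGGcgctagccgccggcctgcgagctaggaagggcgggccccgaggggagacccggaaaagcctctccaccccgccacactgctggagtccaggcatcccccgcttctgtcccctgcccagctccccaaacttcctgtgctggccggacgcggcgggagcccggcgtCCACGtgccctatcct
The first base of the ER stress response element match in Derl3 lay 156 bases before the start. Those of the TGACGTGG matches lay 61 bases before the start in Pou2af1 and 138 bases before it in Txndc5. A match is a string of letters and not a measured binding site. Jchain, Tnfrsf17 and Xbp1 held none of the 4 motifs in this window.

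Spleen and BM cells of the same Gr-1 subset were compared to ask how the splenic cells differ from BM cells of the same surface phenotype. Among Gr-1lo cells, 6 of the 9 genes tested were higher in spleen, where 3.84% of all genes tested were called higher. The largest increase was that of Mzb1 (log2 FC 3.86, SE 0.34, adjusted p = 0.000502), followed by Pou2af1 (3.24, SE 0.36, adjusted p = 0.00169) and Jchain (3.02, SE 0.43, adjusted p = 0.0104). Derl3 (log2 FC 2.17, adjusted p = 0.00959), Sdc1 (1.81, adjusted p = 0.0163) and Prdm1 (1.24, adjusted p = 0.0178) rose less. Irf4 missed the threshold with a log2 FC of 1.09 (SE 0.26, adjusted p = 0.0525). The log2 FC was 0.19 (SE 0.11) for Xbp1 and -0.37 (SE 0.30) for Txndc5, with adjusted p of 0.388 and 0.547. The median of the 9 log2 FC was 1.81, beside -0.01 for all genes tested. Without libraries 5 and 7 the count was again 6. It was 5 without library 7, when Sdc1 was lost, 2 without library 8, when only Mzb1 and Pou2af1 were called, 3 without library 11 and 4 without library 12. At the stricter threshold of an FC above 8 with an adjusted p below 0.01, Mzb1 and Pou2af1 remained, where 1.26% of genes passed as higher.

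Among Gr-1hi cells all 9 genes tested were higher in spleen, where 14.0% of all genes tested were called higher. Mzb1 again had the largest log2 FC, 5.13 (SE 0.36, adjusted p = 0.000104), a 35.0-fold difference. Derl3 followed at 4.81 (SE 0.50, adjusted p = 0.000406), from 2 and 3 counts in BM, and Pou2af1 at 4.05 (SE 0.35, adjusted p = 0.000256). Next were Jchain at 3.42 (SE 0.44, adjusted p = 0.00226), Sdc1 at 3.32 (SE 0.41, adjusted p = 0.000902) and Irf4 at 3.03 (SE 0.32, adjusted p = 0.000461). Txndc5 (2.93, SE 0.36, adjusted p = 0.00143), Prdm1 (2.75, SE 0.29, adjusted p = 0.000416) and Xbp1 (1.30, SE 0.12, adjusted p = 0.000239) were called as well. Tnfrsf17 was not tested. The median of the 9 log2 FC was 3.32, beside 0.03 for all genes tested. All 9 were also called without libraries 5 and 7, and without any 1 library. At the stricter threshold 6 genes passed (Jchain, Mzb1, Sdc1, Irf4, Pou2af1 and Derl3), where 3.52% of genes passed as higher.

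**Figure D2:**
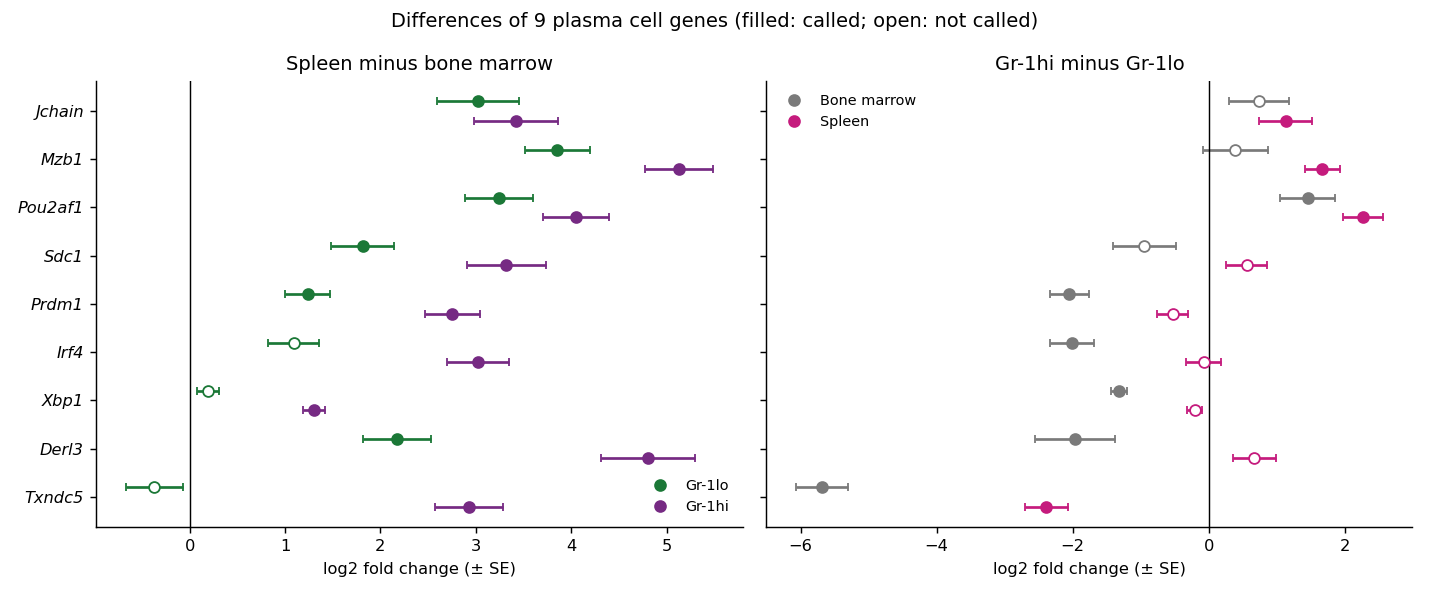
Log2 FC of 9 plasma cell genes (horizontal axis, bars show the SE) for spleen minus BM in Gr-1lo and Gr-1hi cells (left) and for Gr-1hi minus Gr-1lo cells in BM and spleen (right), with filled points for called genes and open points for the others. In the left panel 6 of the Gr-1lo and all 9 of the Gr-1hi points are filled, and Xbp1 and Txndc5 in Gr-1lo lie near 0 at 0.19 and -0.37.

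The Gr-1 subsets of 1 tissue were then compared, using the same libraries as above in other pairs. In BM, 5 of the 9 genes were lower in Gr-1hi than in Gr-1lo cells, where 33.1% of all genes tested were called lower. They were Txndc5 (log2 FC -5.69, SE 0.38, adjusted p = 6.63e-06), Prdm1 (-2.05, SE 0.29, adjusted p = 0.000187), Irf4 (-2.01, SE 0.33, adjusted p = 0.000473), Derl3 (-1.96, SE 0.59, adjusted p = 0.0142) and Xbp1 (-1.32, SE 0.12, adjusted p = 9.53e-06). Pou2af1 was the 1 gene called higher in BM Gr-1hi cells (1.45, SE 0.41, adjusted p = 0.0110), where 24.2% of genes were called higher. Its call was lost without library 9 and without library 11. That of Derl3 was lost without library 9 and without library 12, and with limma (log2 FC -0.38, adjusted p = 0.111), and those of Irf4 and Prdm1 were lost with limma. Jchain, Mzb1 and Sdc1 had log2 FC of 0.74, 0.39 and -0.95, with adjusted p of 0.172, 0.474 and 0.0927. At the stricter threshold Txndc5 alone was called, where 10.1% of genes passed as lower.

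In spleen, 3 of the 9 genes were higher in Gr-1hi than in Gr-1lo cells, where 22.3% of all genes tested were called higher. They were Pou2af1 (log2 FC 2.26, SE 0.30, adjusted p = 0.000189), Mzb1 (1.67, SE 0.26, adjusted p = 0.000409) and Jchain (1.13, SE 0.39, adjusted p = 0.0352). The call of Jchain was lost without library 5, 7, 8, 9 or 10. Its log2 FC was 0.55 (adjusted p = 0.234) without library 5, 0.88 (adjusted p = 0.186) without library 7 and 1.38 (adjusted p = 0.0670) without library 8. The adjusted p was 0.0564 without library 9 and 0.0560 without library 10. It was 0.33 (adjusted p = 0.533) without libraries 5 and 7. Txndc5 was lower in spleen Gr-1hi cells (log2 FC -2.39, SE 0.32, adjusted p = 0.000348), where 27.4% of genes were called lower. The other 5 genes lay between -0.53 for Prdm1 and 0.67 for Derl3 and were not called. With libraries 5 and 7 left out, 2 genes were called higher and 1 lower. At the stricter threshold no plasma cell gene was called in spleen, where 7.37% of genes passed in either direction. DESeq2 and limma also called 0 of them there, while 5 genes had an unadjusted p under 0.05 by the quasi-likelihood test, the 4 named and Prdm1.

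Whether the spleen to BM difference itself differed between the subsets was tested as an interaction. It was larger in Gr-1hi cells for 5 of the 9 genes, where 7.74% of all genes tested were called in that direction. The log2 differences were 3.30 for Txndc5 (SE 0.46, adjusted p = 0.00658), 2.63 for Derl3 (SE 0.67, adjusted p = 0.0326), 1.94 for Irf4 (SE 0.42, adjusted p = 0.0193), 1.52 for Prdm1 (SE 0.37, adjusted p = 0.0285) and 1.11 for Xbp1 (SE 0.16, adjusted p = 0.00500). These are the 5 genes that were lower in BM Gr-1hi than in BM Gr-1lo cells, and both contrasts hold the same 4 BM libraries. Sdc1 (1.51, SE 0.55), Mzb1 (1.28, SE 0.54), Pou2af1 (0.81, SE 0.50) and Jchain (0.39, SE 0.59) were not called, with adjusted p of 0.0991 to 0.693. The count was 1 without libraries 5 and 7, when Xbp1 was left with 1.07 (adjusted p = 0.0125). It was 1 without library 10, 2 without library 5, 7 or 9, and 3 without library 8 or 12. At the stricter threshold Txndc5 was the 1 gene called, where 0.533% of genes passed as higher.

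The genes did not keep one proportion across the libraries. For each 100 counts of Jchain there were 20.1 to 54.3 counts of Pou2af1, 5.14 to 22.2 of Mzb1, 1.87 to 11.1 of Sdc1 and 0.935 to 9.72 of Derl3. The highest value was 2.70 times the lowest for Pou2af1 and 4.32 times for Mzb1. The ranges were far wider for Prdm1, from 8.20 to 168 counts, for Irf4, from 11.9 to 217, for Xbp1, from 243 to 8161, and for Txndc5, from 29.9 to 6275. For Sdc1, Derl3, Prdm1, Irf4, Xbp1 and Txndc5 the 2 highest values came from the 2 BM Gr-1lo libraries, and for Mzb1 and Pou2af1 from the 2 spleen Gr-1hi libraries.

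**Figure D3:**
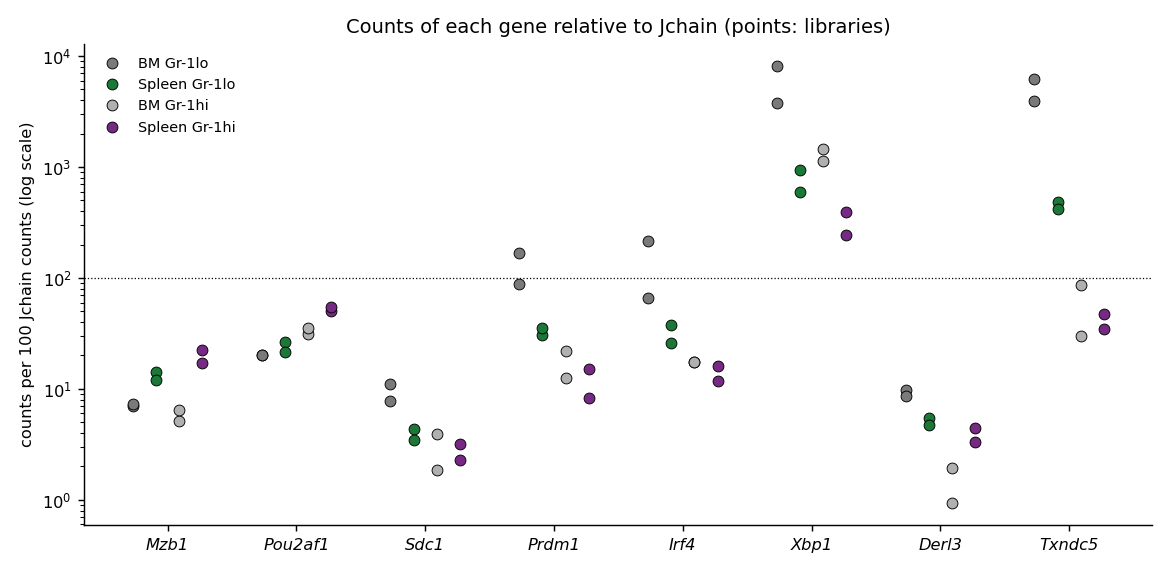
Counts of 8 plasma cell genes per 100 counts of Jchain in the same library (vertical axis, log scale), with 1 point per library coloured by group and a dotted line at 100. Pou2af1 stays within 20.1 to 54.3, whereas Txndc5 runs from 29.9 to 6275, highest in the 2 BM Gr-1lo libraries.

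Across the 8 libraries the log2 CPM of Jchain, Mzb1 and Pou2af1 varied together, with Pearson's r of 0.985 for Jchain and Mzb1, 0.978 for Jchain and Pou2af1 and 0.973 for Mzb1 and Pou2af1. Sdc1 and Derl3 had an r of 0.997 with each other and of 0.858 to 0.963 with those 3 genes. Irf4, Prdm1 and Xbp1 had r of 0.930 to 0.953 with each other. The 2 sets were not apart, since Derl3 had an r of 0.893 with Irf4 and 0.874 with Prdm1, and Sdc1 of 0.874 and 0.850. These values were near that of Derl3 with Pou2af1 (0.858). Txndc5 had an r of 0.890 with Xbp1, 0.0445 with Jchain and -0.0990 with Pou2af1. These values describe 8 libraries that form 4 groups of 2 and share their scaling, and carry no test.

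**Figure D4:**
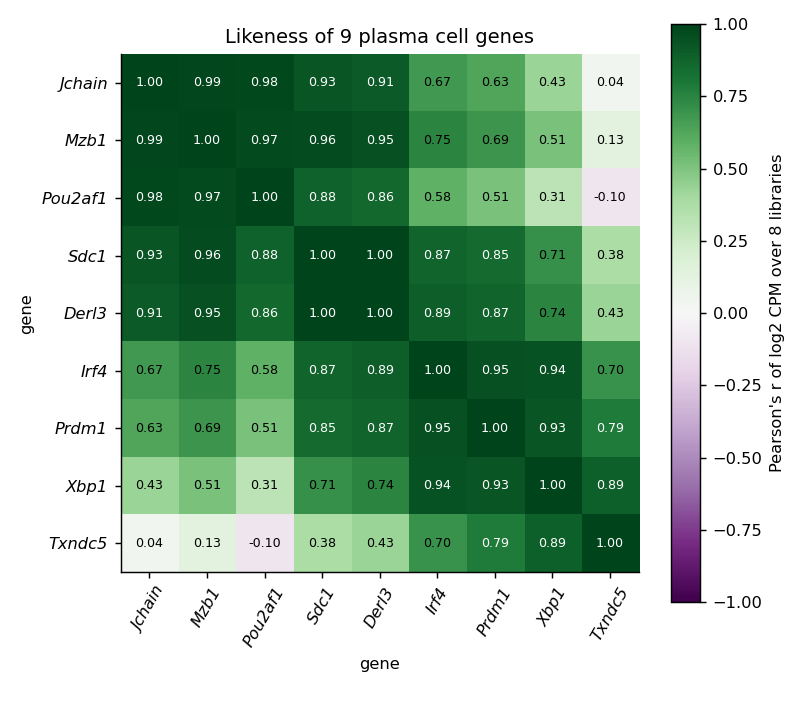
Pearson's r of log2 CPM over the 8 libraries for each pair of 9 plasma cell genes, shown by colour from -1 to 1 and as a number in each cell. Values of 0.858 to 0.997 join Jchain, Mzb1, Pou2af1, Sdc1 and Derl3, values of 0.930 to 0.953 join Irf4, Prdm1 and Xbp1, Derl3 has 0.893 with Irf4, and Txndc5 has -0.0990 with Pou2af1 and 0.890 with Xbp1.

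Among 11562 genes with at least 5 CPM in 1 library, the genes whose pattern was most like each plasma cell gene differed in kind. For Jchain they were Gimap4, Sidt1 and the immunoglobulin segment Ighv1-81, with r of 0.989 to 0.990. For Mzb1 they were Dtx1 and the T cell receptor genes Trbc2 and Trbc1 (all 0.996), and for Pou2af1 the B cell gene Ms4a1, Iglc2 and Lat (0.995 to 0.996). The 3 genes most like Sdc1 and like Derl3 were the same, Igkv4-57, Igkv14-100 and Grap2 (0.993 to 0.997). Prdm1 was most like Il21r, Gm6377 and Itga4 (0.982 to 0.985), Irf4 like Zfhx2, Trim30c and Bcl2l11 (0.980 to 0.995), and Xbp1 like Foxo1 and Kbtbd11 (0.994 and 0.992). Txndc5 was most like Irf8, a monocyte and dendritic cell factor, Ankmy2 and Map4k1 (all 0.998). The likeness is over 8 libraries.

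Another 16 genes known from plasma cells were examined as a list. In spleen Gr-1lo cells 5 of the 16 were higher than in BM, namely Iglv1 (log2 FC 3.02), Ly6d (2.29), Slamf7 (2.10), Tent5c (1.86) and Cd28 (1.51), beside the 3.84% of all genes. In spleen Gr-1hi cells 8 were higher and 1, Cd93, was lower (-1.16). The increases were largest for Oosp1 (with 0 and 1 counts in BM, so no size is given), Iglv1 (4.19), Cd28 (3.60) and Enpp1 (3.39), beside the 14.0% of all genes. Their median log2 FC was 0.82 in Gr-1lo and 2.15 in Gr-1hi cells. The gene with the highest level in a single library was Cxcr4, a homing receptor that many leukocytes carry, at 82.6 to 455 CPM. In the Gr-1lo groups the mean of Cd93 was above that of Cxcr4. Cxcr4 was not called between spleen and BM in either subset, since its decreases in spleen were under the fold threshold. By the quasi-likelihood test the log2 FC was -0.66 in Gr-1lo (adjusted p = 0.0268) and -0.48 in Gr-1hi cells (adjusted p = 0.0261). Between subsets, 5 of the 16 were higher in Gr-1hi cells of BM and 6 lower, beside 24.2% and 33.1% of all genes. In spleen 8 were higher and 2 lower, beside 22.3% and 27.4%.

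Few ER folding and secretion genes, which plasma cells hold at high levels, were called between spleen and BM. In Gr-1lo cells 0 of 34 were called in either direction by the quasi-likelihood test, by DESeq2 or by limma. The quasi-likelihood test called 716 of all 17650 genes in either direction there, so few calls would be looked for among 34 genes. Of the 34, 16 had an unadjusted p under 0.05 by that test, and the median log2 FC was -0.20. In Gr-1hi cells 2 of 34 were called, both higher in spleen, beside 14.0% of all genes, with a median of -0.004. They were the disulfide isomerase Pdia4 (log2 FC 1.97, SE 0.16, adjusted p = 0.000175) and Sdf2l1 (1.64, SE 0.19, adjusted p = 0.000602). Both were also called in the interaction (2.33 and 2.04). Between subsets the list was mostly lower in Gr-1hi cells, with 20 of 34 called lower in BM, beside the 33.1% of all genes, and 16 in spleen, beside 27.4%. Dnajb9 was the 1 gene called higher (1.40 in BM). Sdf2l1 (-5.42), Pdia4 (-3.67), Pdia6 (-3.01) and Lman1 (-2.99) had the largest decreases in BM. Txndc5 lay in the same direction in both tissues. Calr had the highest level of the list in a single library and was at 110 to 545 CPM, although Hspa5 was above it in the means of both Gr-1hi groups. Calr was lower in Gr-1hi cells, with a log2 FC of -2.25 for BM and -1.67 for spleen.

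The receptors and ligands of the BAFF and APRIL pathway did not share 1 direction. Tnfrsf13c, the BAFF receptor of B cells, was higher in spleen in both subsets (log2 FC 3.95 in Gr-1lo and 5.16 in Gr-1hi). Tnfrsf13b, which encodes TACI, was not called between spleen and BM in either subset, at 57.1 to 73.5 CPM in Gr-1lo libraries. In Gr-1hi cells it missed only the fold threshold of the quasi-likelihood test (log2 FC 0.98, adjusted p = 0.00206). It was at 14.9 to 20.1 CPM in spleen Gr-1hi and 8.75 to 9.00 CPM in BM Gr-1hi. Its interaction was called (1.25, adjusted p = 0.00691). Tnfsf13b, which encodes BAFF, was higher in Gr-1hi than in Gr-1lo cells of both tissues (3.44 in BM and 2.21 in spleen), and Tnfsf13, which encodes APRIL, was lower (-4.73 and -4.18). Neither ligand was called between spleen and BM. In Gr-1hi cells Tnfsf13b was lower in spleen and missed only the fold threshold of the quasi-likelihood test (log2 FC -0.66, adjusted p = 0.0438). It was at 37.4 to 63.4 CPM in spleen Gr-1hi and 74.5 to 85.2 CPM in BM Gr-1hi. The interaction of Tnfsf13b was called (-1.23, adjusted p = 0.0336). Cxcl12, a chemokine of the plasma cell niche, was called lower in spleen in both subsets. It had 76 and 34 counts in BM Gr-1hi, 34 and 16 in BM Gr-1lo, and at most 4 in a spleen library. Il6, the other gene of the list, was not tested and had 2 to 13 counts per library.

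Most regulators that act in B cells before or against the plasma cell programme were higher in spleen, as Prdm1 was. In Gr-1lo cells 5 of 8 were higher, beside 3.84% of all genes, with log2 FC of 3.76 for Pax5, 3.25 for Ebf1, 2.62 for Spib and 1.39 for Bach2 among them. In Gr-1hi cells 6 of 8 were higher, beside 14.0%, led by Pax5 (4.02), Id3 (3.55), Spib (3.32) and Ciita (3.31). The value of Id3 depends on few reads, with 4 and 5 counts in the BM Gr-1hi libraries. Pax5, which fixes B cell identity and which BLIMP1 represses, was at 40.2 and 57.8 CPM in spleen Gr-1hi, 6.37 and 8.22 CPM in spleen Gr-1lo and at most 3.07 CPM in BM. Bcl6, a germinal centre factor that neutrophils also hold, was at 43.8 to 332 CPM and was not called between spleen and BM.

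Many markers of lymphocytes were higher in spleen. Jchain, Mzb1, Pou2af1, Sdc1, Derl3 and Prdm1 were called higher there in both subsets. Irf4, Xbp1 and Txndc5 were called in Gr-1hi cells alone. In spleen, all 12 B cell genes were higher in Gr-1hi than in Gr-1lo cells. Of the 9 plasma cell genes tested, Pou2af1, Mzb1 and Jchain were higher there, Txndc5 was lower (log2 FC -2.39) and 5 were not called. Immunoglobulin constant genes summed to 2742 and 3314 CPM in spleen Gr-1hi and 1873 and 2588 CPM in spleen Gr-1lo, against 257 to 294 CPM in BM Gr-1hi and 420 to 578 CPM in BM Gr-1lo. For this list and the marker lists that follow, the shares of all genes called higher in spleen were 3.84% in Gr-1lo and 14.0% in Gr-1hi cells. Of these 12 genes 8 were higher in spleen in Gr-1lo and 11 in Gr-1hi cells, among them Ighg2c (log2 FC 2.85 and 5.91), Ighg1 (2.82 and 5.34) and Igkc (2.94 and 4.13). The highest level in a single library was that of Ighm, which was at 148 to 1074 CPM. Igkc was at 47.9 to 969 CPM and lay above Ighm in the means of both spleen groups. Ighe was at 0 in both BM Gr-1hi libraries, and the IgG genes are alike enough in sequence that reads may be shared. Between the subsets of BM, Ighg2c (-3.22), Ighg2b (-2.54) and Ighg1 (-2.41) were lower in Gr-1hi cells, while Igha (3.93), Iglc3 (1.73) and Ighd (1.27) were higher.

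B cell and T cell markers rose too. Of 12 B cell genes 10 were higher in spleen in Gr-1lo and 11 in Gr-1hi cells, and the list summed to 840 to 1094 CPM in spleen Gr-1hi, 180 to 181 CPM in spleen Gr-1lo, 513 to 562 CPM in BM Gr-1hi and 97.8 to 103 CPM in BM Gr-1lo. Most of the BM sum was Cd37 (485 and 532 CPM in BM Gr-1hi), a gene that was not called between the tissues. Cd37 was also a large part of the spleen sums, at 437 to 506 CPM in spleen Gr-1hi and 85.8 to 107 CPM in spleen Gr-1lo. Cr2 was at 0 in library 11. All 12 T cell genes were higher in spleen Gr-1lo and 11 in spleen Gr-1hi cells, with sums of 106 to 172 CPM in spleen Gr-1hi, 35.9 to 53.4 CPM in spleen Gr-1lo, 9.33 to 13 CPM in BM Gr-1hi and 2.68 to 2.95 CPM in BM Gr-1lo. The parts of these cells in the differences of the plasma cell genes were not tested.

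Markers of dendritic and red cells were checked in the same way. Of 8 conventional dendritic cell genes tested 4 and 5 were higher in spleen, with sums of 114 to 118 CPM in spleen Gr-1hi, 27.9 to 44.2 CPM in spleen Gr-1lo, 26.2 to 40.0 CPM in BM Gr-1hi and 5.52 to 8.97 CPM in BM Gr-1lo. Ccr7 was at 0 in both BM Gr-1lo libraries. Of 8 plasmacytoid dendritic cell genes tested 2 were higher in spleen in each subset and 1, Siglech, was lower in Gr-1hi cells, with sums of 78.5 to 120 CPM in all libraries. Siglech, the defining gene, was at 0.232 to 1.32 CPM. Erythroid genes were higher in spleen for 6 of 6 and 5 of 6 genes tested, with sums of 217 to 731 CPM in spleen Gr-1hi, 166 to 232 CPM in spleen Gr-1lo, 35.7 to 43.8 CPM in BM Gr-1hi and 7.70 to 8.29 CPM in BM Gr-1lo. Their part was not tested either.

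**Figure D5:**
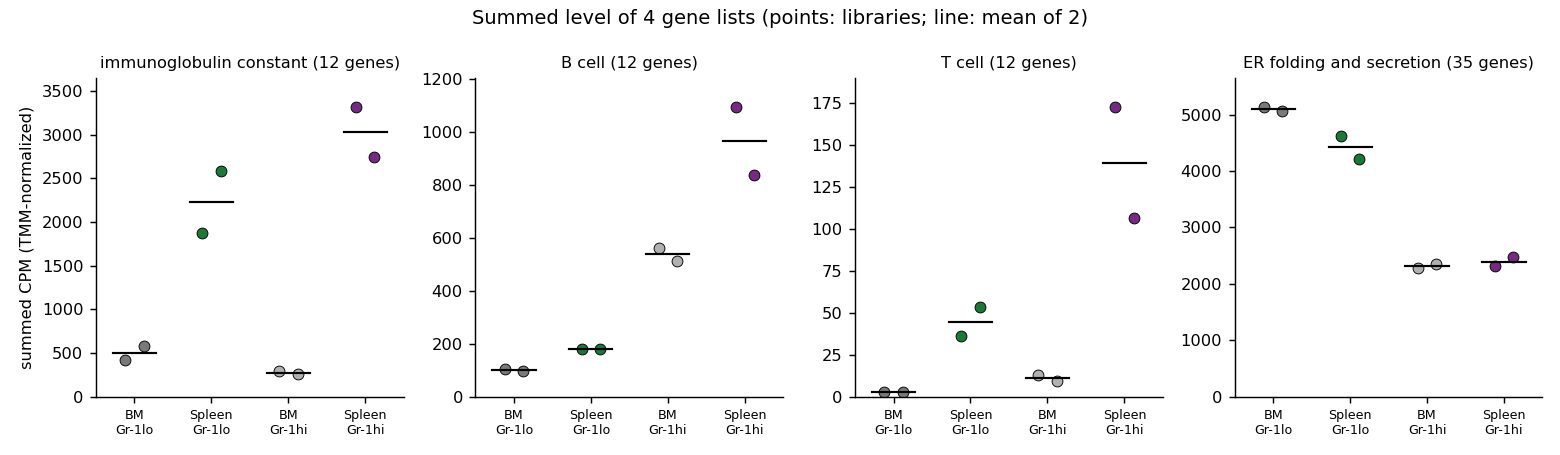
Summed CPM (vertical axis, linear, from 0) of 4 gene lists in the 4 groups (horizontal axis), with 1 point per library and a line at the mean of the 2 libraries. The immunoglobulin, B cell and T cell sums are highest in spleen Gr-1hi, at 2742 to 3314, 840 to 1094 and 106 to 172 CPM. The B cell sum includes Cd37, at 437 to 506 CPM in spleen Gr-1hi and 485 to 532 CPM in BM Gr-1hi. The ER sum is 4219 to 5128 CPM in Gr-1lo and 2276 to 2472 CPM in Gr-1hi libraries of both tissues.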

How the data were processed

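RNA of Gr-1hi and Gr-1lo CD11b+ cells sorted from spleen and BM was measured by sequencing, 2 libraries for each of the 4 groups. The authors checked reads with FastQC, trimmed them with Sickle, aligned them to GRCm38 with STAR and deposited raw counts per gene from featureCounts, without normalization. The table holds 54188 genes, of which 34018 had a count, and every column was used. Groups came from the labels. The 10 genes, the lists and the tests were chosen with earlier results of these data known, although the rule for the 10 genes uses their symbols alone.

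The counts went into edgeR 4.0.16 (R 4.3.3). filterByExpr left 17650 genes, libraries were scaled by TMM, and 1 robust quasi-likelihood model had a term per group, 8 libraries and 4 residual degrees of freedom. Adjustment over all genes tested followed Benjamini and Hochberg. The interaction was Gr-1hi minus Gr-1lo in spleen minus the same in BM. SE values are the absolute log2 FC over the square root of F. Libraries of 1 group were not copies of each other (chi-square over degrees of freedom 66.7 in spleen Gr-1hi and 18.9 to 21.3 in the other groups). The procedure was tested on simulated data. Exon lengths came from GENCODE M21, the annotation at hand, while the authors counted on another release. All 10 genes had a length.

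Depth was 33453580 to 68316154 counts per library. Named genes were all 10 genes, of each list at most 4 called genes with the largest change in a comparison and the gene at the highest CPM in a library, the 3 genes most like each of the 9 tested by Pearson's r of log2(CPM + 0.25), and Xist, Ddx3y, Ly6g, Itgam and Csf1r as checks. Siglech, Igkc, the IgG genes, Cd37, Bcl6, the BAFF and APRIL genes, genes at 0, Igha, Iglc3, Ighd, Il6, Hspa5, Cd93, the members of counts of 5 or fewer, and genes that are the only ones of a list in a direction were named after their values were seen. Csf1r was at 133 to 754 CPM. Results of 2 other genes are not reported here.

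Alternatives were RLE and upper-quartile scaling, DESeq2 1.42.0, no filter, a fit of the 4 libraries compared, limma 3.58.1 on log2(quantile-normalized TPM + 1) with a minimum TPM sum of 10, leaving out libraries 5 and 7 together and each library in turn, and the stricter threshold (FC above 8, adjusted p below 0.01).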

Additional observations from a re-analysis of the deposited data

Results flagged for a closer look

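For 5 genes the main fit called the difference between Gr-1hi and Gr-1lo cells as not the same in spleen and BM, by a test of that difference. The interaction, in log2 units by the quasi-likelihood test of edgeR, was 1.52 for Prdm1, 1.11 for Xbp1, 2.63 for Derl3, 1.94 for Irf4 and 3.30 for Txndc5. The adjusted p over the alternatives ran from 4.31e-05 to 0.132 for Prdm1, 9.04e-10 to 0.0330 for Xbp1, 0.00566 to 0.145 for Derl3, 2.16e-08 to 0.0918 for Irf4 and 2.57e-12 to 0.119 for Txndc5. Each of the 5 was positive under every alternative run. With 2 libraries a group, no library could be tested as standing apart from its group.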

How the results depend on the processing

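The number of genes called depended on the processing more in Gr-1lo than in Gr-1hi cells. In spleen against BM, limma on quantile-normalized TPM called 3 genes in Gr-1lo cells, with 6 in the main analysis, and the stricter threshold called 2. Leaving out 1 library gave 2 to 7 there, 9 in Gr-1hi cells, 4 to 6 between the subsets of BM, 3 to 4 between those of spleen, and 1 to 5 in the interaction. The stricter threshold gave 1 gene in BM, 0 in spleen and 1 in the interaction. The interaction gave 2 with limma and 1 without libraries 5 and 7. The Jchain difference between the subsets of spleen was lost in 8 of 15 alternatives. RLE scaling moved the median of all genes by 0.15 between the subsets of BM and by 0.13 between those of spleen. Between the subsets of spleen, Irf4 changed sign from -0.0753 to 0.0608 with RLE scaling, 0.0109 with upper-quartile scaling, 0.0263 with DESeq2 and 0.272 with limma, and ran from -0.380 to 0.135 without 1 library. The Jchain interaction changed sign to -0.187 with limma and -0.361 without libraries 5 and 7, and ran from -0.264 to 0.783 without 1 library. Mzb1 ran from -0.0408 to 0.974 between the subsets of BM without 1 library. None of these values was called in either direction, and the cause was not tested. Over single genes, 591 values kept their direction and side of the threshold, 54 lost a call and 6 gained one.

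Over all genes, limma called 338 between spleen and BM in Gr-1lo cells (716 in the main analysis), 1195 in Gr-1hi cells (2727), and 601 in the interaction (1719), with fewer genes tested. Without a filter 1077 were called in Gr-1lo cells, and leaving out 1 library gave 389 to 785. Without library 5 there were 1715 calls in Gr-1hi cells, and 1617 without libraries 5 and 7, when the interaction had 819. Leaving out 1 library gave 915 to 2488 in the interaction. The stricter threshold gave 222, 624, 2946 in BM, 1301 in spleen and 103 in the interaction. Where 1 library was left out, its partner was assumed to vary like the other groups. Sdc1 had no value under limma, and the interaction needs all 4 groups, so it has none from 4 libraries. No paired analysis was possible because the groups share no replicate numbers and, although the study calls the BM cells autologous, no source ties a spleen library to a BM library. Depth limits Tnfrsf17, with at most 16 counts per library, and Derl3 in BM Gr-1hi, with 2 and 3.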
